A study of Danio rerio with 18 samples.

Results

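The MYC family genes of zebrafish (Danio rerio), myca, mycb, mych and mycn, were followed across 18 microarrays of lateral line primordium cells. They were chosen by gene symbol, as the probe sets whose single symbol in the array's probe-to-gene table is 1 of these 4 names, and the family was picked on 1 measured pattern, namely that myca was higher with SU5402 and lower with Fgf3 overexpression than in control. That pattern of myca is therefore given as a description with no test. The other 3 genes entered by family name, in a choice made with earlier results of these data known. The L-Myc genes mycla and myclb are not counted in the family here and are described apart. Each of the 4 genes had 1 probe set, so that the family makes up 4 of 75212 probe sets and 4 of 19260 named genes. No member's values were shared with another probe set. The labels and tables do not say which part of each transcript the probes read, or whether they separate the related copies myca and mycb.

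MYC proteins are basic helix-loop-helix leucine zipper transcription factors that bind DNA as pairs with MAX and are best known for driving growth, ribosome production and cell division. Proteins of the MXD, MNT and MGA families compete for MAX. Zebrafish myca and mycb are the duplicated counterparts of mammalian MYC, mycn is the counterpart of MYCN, and mych is a further MYC-like gene of fish. In many tissues MYC genes lie downstream of Wnt and of growth factor signalling. The primordium is a group of cells that migrates along the flank of the embryo and deposits sensory organs, with Wnt activity at its front and FGF activity behind it.

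There were 3 groups of 6 arrays. SU5402 embryos carried the transgenes cldnb:lynGFP and cxcr4b:nls-tdTomato and received 1 μM SU5402, an inhibitor of FGF receptors, with 0.1% DMSO and 10 μM RU486. Fgf3 overexpression embryos carried the same 2 transgenes together with cxcr4b:LexPR and lexOP:Fgf3-GFP and received 10 μM RU486, which activates the LexPR driver, and 0.1% DMSO. Control embryos, called untreated in their labels, carried the first 2 transgenes and received the same RU486 and DMSO. All groups thus share the reporters, RU486 and DMSO, and the driver with its Fgf3-GFP target was present in the overexpression group alone, so that the effects of these transgenes and of Fgf3 cannot be told apart. Embryos were younger than 3 days. The arrays are labelled as biological replicates, but they do not state how many embryos each one pooled or how the cells were isolated. P-values measure the spread between these arrays.

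Values are log2 signals, on which a difference of 1 is a 2-fold difference. The genes whose promoters drive the reporters were bright in each group. The tight junction gene cldnb lay between 11.77 and 11.91 with SU5402, between 11.84 and 12.09 with Fgf3 overexpression and between 11.70 and 12.11 in control. The chemokine receptor gene cxcr4b lay between 10.64 and 10.98, between 10.74 and 11.53, and between 10.14 and 10.91 in the same order of groups. Such brightness was not particular to these genes, and the muscle gene actc1b lay between 12.92 and 13.18 in control. In these bulk samples fewer cells of a type and less RNA per cell cannot be told apart.

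All 4 genes had their highest mean with SU5402, their lowest with Fgf3 overexpression and the control mean in between. With SU5402 the shifts of myca and mycn were larger than those of mycb and mych.

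The myca signal ran from 8.43 to 8.60 with SU5402 (median 8.51), from 6.04 to 6.82 with Fgf3 overexpression (median 6.53) and from 6.77 to 7.36 in control (median 7.13). All 6 SU5402 arrays lay above all control arrays, and 5 of the 6 overexpression arrays lay below all control arrays, with 1 inside the control range. The group means were 8.51 ± 0.07, 6.49 ± 0.27 and 7.07 ± 0.22 (SD, n = 6 each). Against control, the log2 change was 1.44 (SE 0.12) with SU5402, a 2.72-fold higher level, and -0.58 (SE 0.12) with Fgf3 overexpression, a 1.49-fold lower level. With Fgf3 overexpression myca was 4.05-fold lower than with SU5402 (log2 change -2.02, SE 0.12). These differences are the ones on which the family was picked and were not tested. Of 19260 named genes, 63 had a more positive change than myca with SU5402, and 318 a more negative one with Fgf3 overexpression.

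The mycn gene had the same order of groups, and its call held in all 3 comparisons. It ran from 8.16 to 8.76 with SU5402 (median 8.39), from 6.34 to 6.78 with Fgf3 overexpression (median 6.49) and from 6.84 to 7.49 in control (median 7.21). No group overlapped another. With SU5402 mycn rose 2.33-fold (log2 change 1.22, SE 0.12, limma adjusted p = 1.37e-06, n = 6 per group). With Fgf3 overexpression it fell 1.63-fold (log2 change -0.70, SE 0.12, limma adjusted p = 0.00158). With Fgf3 overexpression it was 3.80-fold lower than with SU5402 (log2 change -1.93, SE 0.12, limma adjusted p = 1.23e-09). These comparisons share arrays and are not independent of each other. Of the named genes 103 had a more positive change than mycn with SU5402 and 201 a more negative one with Fgf3 overexpression.

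The mycb gene had the same order of groups, and its differences from control did not pass in the fit as reported, which leaves replicate numbers out. It ran from 9.72 to 10.34 with SU5402 (median 9.97), from 8.88 to 9.52 with Fgf3 overexpression (median 9.33) and from 9.43 to 9.87 in control (median 9.61). Every SU5402 array was above the control mean, but 3 of the 6 lay within the control range, and 1 overexpression array lay within it as well. The log2 change was 0.37 with SU5402 (SE 0.13, 95% interval 0.09 to 0.65, limma adjusted p = 0.0935) and -0.38 with Fgf3 overexpression (SE 0.13, 95% interval -0.65 to -0.10, limma adjusted p = 0.140). Over 24 alternatives the adjusted p of the limma fit ran from 0.00704 to 0.201 with SU5402, passing in 2, and from 0.0130 to 0.278 with Fgf3 overexpression, passing in 1. The lowest value of both ranges came from the fit with a replicate block. Between the overexpression and SU5402 groups the values did not overlap, and mycb was 1.68-fold lower with Fgf3 overexpression (log2 change -0.75, SE 0.13, limma adjusted p = 0.000445).

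The mych gene resembled mycb. It ran from 8.79 to 9.32 with SU5402 (median 8.99), from 7.78 to 8.49 with Fgf3 overexpression (median 8.14) and from 8.38 to 9.10 in control (median 8.49). Control replicate 1, at 9.10, stood apart from the other 5 control arrays, which lay between 8.38 and 8.50, and reached into the SU5402 range. The log2 change was 0.46 with SU5402 (SE 0.14, 95% interval 0.16 to 0.76, limma adjusted p = 0.0510), just outside the threshold of 0.05, and -0.45 with Fgf3 overexpression (SE 0.14, 95% interval -0.75 to -0.15, limma adjusted p = 0.0975, 0.0156 to 0.208 over 24 alternatives, passing in 1). Without control replicate 1 the SU5402 change was 0.57 and passed (limma adjusted p = 0.00741). It also passed without SU5402 replicate 2 (adjusted p = 0.0437), SU5402 replicate 4 (adjusted p = 0.0423), Fgf3 overexpression replicate 1 (adjusted p = 0.0402) or Fgf3 overexpression replicate 2 (adjusted p = 0.0449), and over all 24 alternatives limma's adjusted p ran from 0.00673 to 0.116. With Fgf3 overexpression mych was 1.88-fold lower than with SU5402, with no overlap (log2 change -0.91, SE 0.14, limma adjusted p = 0.000138).

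Of the 3 tested members 1, mycn, was called higher with SU5402, where 6.57% of named genes were, and 1, again mycn, was called lower with Fgf3 overexpression, where 2.48% were. All 3 were called lower with Fgf3 overexpression than with SU5402, a comparison in which 11.9% of named genes were. As a background for the groups without overlap, 4.78% of named genes had all SU5402 arrays above all control arrays, 2.10% had all overexpression arrays below all control arrays, and 7.79% had all overexpression arrays below all SU5402 arrays. Those shares stand beside a family picked with the myca values known, and nothing further was read from the counts.

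**Figure D1:**
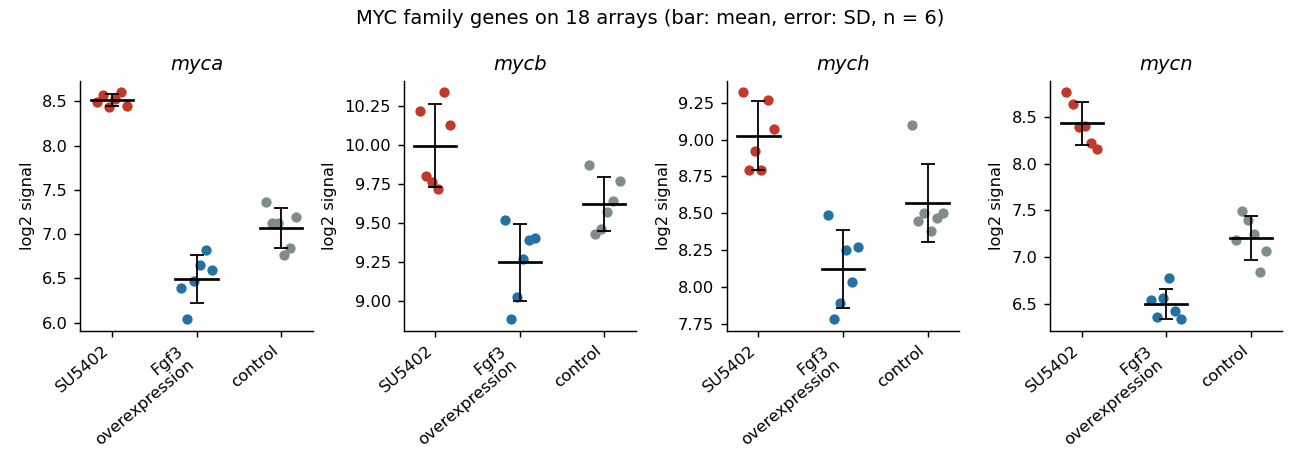
Log2 signal of myca, mycb, mych and mycn (1 panel each, each with its own vertical axis) on the single arrays with SU5402, with Fgf3 overexpression and in control; horizontal bars are group means and error bars SD (n = 6). For mycn all SU5402 arrays lie at 8.16 or above and all overexpression arrays at 6.78 or below, on either side of control, whereas for mych control replicate 1, at 9.10, lies within the SU5402 range.

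The sizes of the changes in signal differed between members. How closely the signal of each probe set follows a change in RNA was not tested. Because 2 probe sets cannot be compared in level, the log2 difference between 2 genes was taken on each array and compared between groups by a two-sided exact permutation test over arrays, in 9 tests on mycb, mych and mycn. With SU5402 the change of mycn exceeded that of mycb by 0.85 (SE 0.22, exact permutation p = 0.0108, Benjamini-Hochberg p = 0.0244) and that of mych by 0.76 (SE 0.20, exact permutation p = 0.00433, Benjamini-Hochberg p = 0.0130). With Fgf3 overexpression against control the differences between these 3 genes did not pass, with mycb minus mycn at 0.33 (SE 0.19, exact permutation p = 0.121) and mych minus mycn at 0.26 (SE 0.18, exact permutation p = 0.193). A difference between the changes of mycb and mych against control was not detectable, with mycb minus mych at -0.09 (SE 0.09, exact permutation p = 0.331) with SU5402 and at 0.07 (SE 0.09, exact permutation p = 0.463) with Fgf3 overexpression. Between Fgf3 overexpression and SU5402, mych fell by slightly more than mycb, with a difference of 0.16 (SE 0.06, exact permutation p = 0.0217, Benjamini-Hochberg p = 0.0390). As a description with no test, the SU5402 change of myca exceeded that of mycb by 1.07 (SE 0.14), that of mych by 0.98 (SE 0.12) and that of mycn by 0.22 (SE 0.15).

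Within the groups, mycb and mych also varied together from array to array. Each array's deviation from its group mean was taken, which removes the treatments, and the 6 gene pairs were compared over 18 arrays. For mycb and mych the deviations were correlated, with Pearson's r = 0.84 (permutation p = 2e-05, the smallest that 100000 permutations can give, Benjamini-Hochberg p = 0.00012) and Spearman's rho = 0.91 (permutation p = 2e-05). Without the 2 arrays farthest from the median of mycb, r was 0.81, and within the single groups it was 0.94 with SU5402, 0.89 with Fgf3 overexpression and 0.71 in control. Both genes also deviated alike on arrays with the same replicate number. The mycb deviations of replicate 1 were 0.22 with SU5402, 0.27 with Fgf3 overexpression and 0.25 in control, and those of replicate 2 were -0.20, -0.37 and -0.19 in the same order. With the means of the numbers removed as well, r was 0.75, and with the 6 numbers permuted together in all groups the two-sided exact permutation p was 0.00139, the smallest that 720 orders allow. Of the other named genes, 38 of 19259 followed mycb more closely than mych did by this measure, and their median r with mycb was -0.02. The 5 other pairs did not pass, with r between -0.21 for mycb and mycn and 0.44 for myca and mych (permutation p = 0.0612, Benjamini-Hochberg p = 0.148). For myca and mycn, whose r was 0.96 with the group differences included, r of the deviations was 0.22 and rho 0.13 (permutation p = 0.381 and 0.606). The points of a pair share their arrays, so that array quality or cell composition enters both, and their part was not tested.

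**Figure D2:**
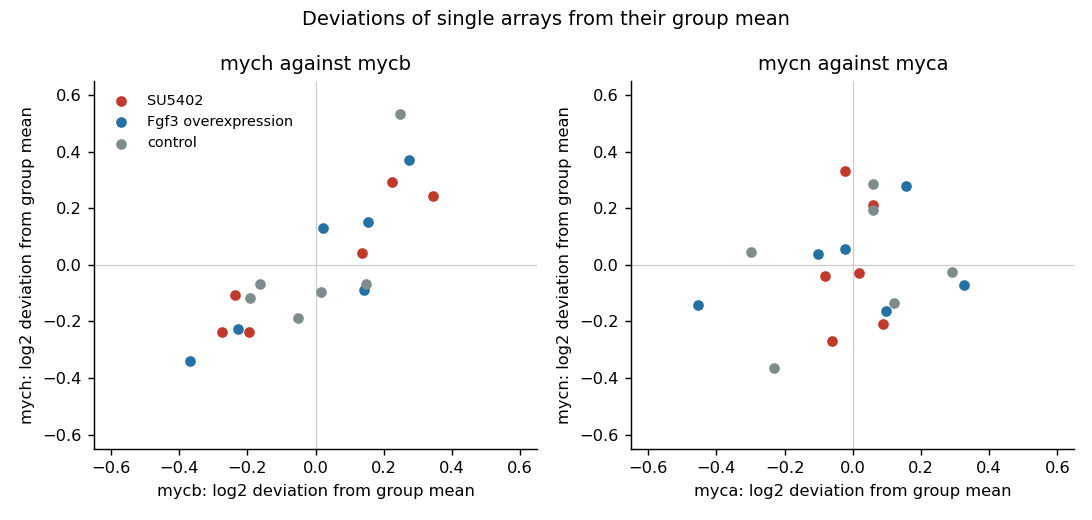
Deviation of each array from its group mean (log2) for mych against mycb (left) and mycn against myca (right), coloured by group, with 18 arrays in each panel. On the left the points follow a rising line (r = 0.84), and on the right they scatter (r = 0.22).

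The genes outside the family most like each member over the 18 arrays are given as a description. Likeness was Pearson's correlation with the group differences included, and groups that stand apart make such values high. Genes known just by the symbol of a clone or of a predicted locus were set aside. Nearest to myca were epha7, which encodes an ephrin receptor (r = 0.99), the transcription factor gene runx2a (0.98), fam110d (0.98), the cholecystokinin receptor gene cckbra (0.98) and the ligand gene wnt10a (0.98). Their log2 changes ran from 1.07 for fam110d to 2.86 for runx2a with SU5402 and from -1.11 for runx2a to -0.51 for fam110d with Fgf3 overexpression. The mirror image of myca was found in mfng, which encodes a glycosyltransferase that modifies Notch (r = -0.98, log2 changes -1.51 with SU5402 and 1.08 with Fgf3 overexpression), the transcription factor genes klf17 (-0.97) and grhl2a (-0.97), arhgef15b (-0.97) and the actin-capping protein gene capgb (-0.97). For deviations from group means alone, r with myca ran from 0.33 for wnt10a to 0.64 for fam110d among the first 5 and from -0.75 for mfng to -0.20 for grhl2a among the other 5.

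Nearest to mycn were the ligand gene wnt6b (r = 0.98), cckbra (0.98), the secreted kinase gene pkdccb (0.98), the semaphorin gene sema5ba (0.98) and the syntrophin gene sntb1 (0.98). Of these, cckbra was shared with myca, and wnt6b changed by 1.81 with SU5402 and by -0.89 with Fgf3 overexpression. For mycb the nearest were the leptin gene lepa (0.95), the kinase gene sik2b (0.95), rasgef1ba (0.94), the growth arrest and DNA damage gene gadd45ba (0.94) and the metalloprotease gene adam8b (0.93). For mych they were rasgef1ba (0.98), lsp1b (0.95), lepa (0.94), cdkn1a, which encodes the cell cycle inhibitor p21 (0.94), and sik2b (0.94). The lists of mycb and mych shared lepa, sik2b and rasgef1ba. Their likeness was there within groups too, with r of deviations of 0.92 between mych and rasgef1ba and 0.91 between mycb and gadd45ba, whereas for the 5 genes nearest to mycn it ran from 0.53 to 0.64. On the whole array set, the members' own r was 0.96 for myca and mycn and 0.95 for mycb and mych, against 0.76 for mycb and mycn. The r of mycb with mych (0.9502) was above that of lepa with mycb (0.9484) or with mych (0.9394). It was below that of rasgef1ba (0.9778) and of lsp1b (0.9544) with mych.

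Of the 2 L-Myc genes, myclb had the reverse order of groups, with 7.63 to 8.19 with SU5402 (median 7.98), 9.23 to 9.88 with Fgf3 overexpression (median 9.59) and 8.62 to 8.99 in control (median 8.87). No group overlapped another. It fell with SU5402 (log2 change -0.89, SE 0.13, limma adjusted p = 0.000114, n = 6 per group) and rose with Fgf3 overexpression (log2 change 0.74, SE 0.13, limma adjusted p = 0.00163). The other L-Myc gene, mycla, lay between 7.59 and 8.31 with SU5402, between 7.03 and 7.75 with Fgf3 overexpression and between 7.43 and 8.02 in control, and its groups overlapped. Its means had the order of the family. Its log2 changes were 0.15 (SE 0.14, limma adjusted p = 0.638) and -0.27 (SE 0.14, limma adjusted p = 0.366).

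Among the 11 measured MYC relatives and MAX network genes, 4 were called with SU5402, 1 higher and 3 lower (8.13% of all named genes were called lower), and 2 with Fgf3 overexpression, both higher (3.41% of all named genes). The list's median log2 change was 0.07 with SU5402 and -0.01 with Fgf3 overexpression, against 0.01 and -0.01 over all named genes. MAX itself, the partner that all MYC proteins need, rose slightly with SU5402 (max, log2 change 0.29, SE 0.07, limma adjusted p = 0.0124) and was at 0.20 with Fgf3 overexpression (SE 0.07, limma adjusted p = 0.142). Its arrays lay between 8.67 and 9.02 with SU5402, between 8.66 and 8.79 with Fgf3 overexpression and between 8.39 and 8.66 in control, so that both treated groups sat at the top of the control range or above it.

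Of the genes for MAX partners that oppose MYC, mxi1 was called in both comparisons, with directions opposite to those of the family, and mxd3 with SU5402 alone. The gene mxi1 lay between 10.14 and 10.37 with SU5402, between 11.26 and 11.59 with Fgf3 overexpression and between 10.47 and 10.67 in control, with no overlap. It fell with SU5402 (log2 change -0.33, SE 0.07, limma adjusted p = 0.00531) and rose 1.81-fold with Fgf3 overexpression (log2 change 0.86, SE 0.07, limma adjusted p = 4.10e-07). The gene mxd3, whose mammalian counterpart is expressed in dividing cells, fell with SU5402 (log2 change -0.76, SE 0.10, limma adjusted p = 2.00e-05) and was at 0.09 with Fgf3 overexpression (SE 0.10, limma adjusted p = 0.710). The 7 genes mycla, mxd1, mxd4, mntb, mgaa, mlxip and mlxipl passed in neither comparison.

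**Figure D3:**
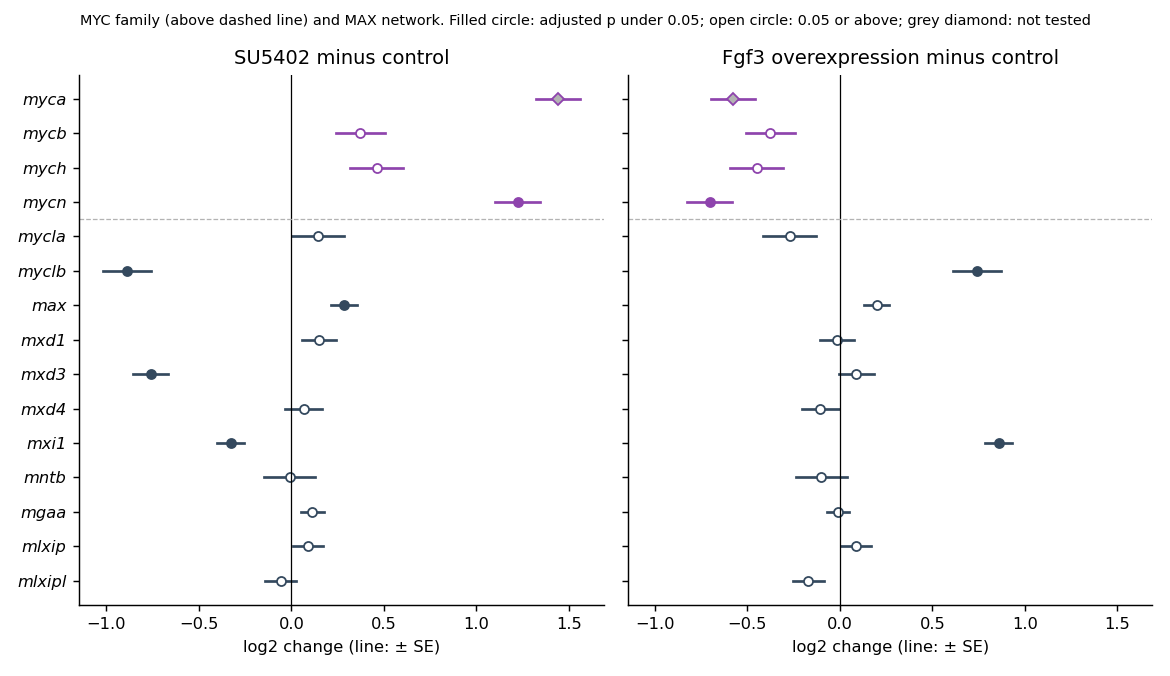
Log2 change of the 4 MYC family genes (above the dashed line) and of 11 MYC relatives and MAX network genes, SU5402 minus control (left) and Fgf3 overexpression minus control (right); lines are ± SE, filled circles have an adjusted p under 0.05, open circles do not, and myca (grey diamond) was not tested. The 4 family genes lie right of 0 on the left and left of 0 on the right, and myclb and mxi1 lie on the opposite sides.

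Of 21 measured genes for MYC cofactors and regulators of MYC stability, 4 fell with SU5402 and none rose (median log2 change -0.07), where 8.13% of all named genes were called lower and 6.57% higher. They were cip2a, whose mammalian product protects MYC from dephosphorylation (-0.70, SE 0.10, limma adjusted p = 7.0e-05), the mitotic kinase gene aurka (-0.61, SE 0.08) and the host cell factor genes hcfc1a (-0.48, SE 0.07) and hcfc1b (-0.32, SE 0.07). The signal of cip2a lay between 6.07 and 6.55 with SU5402, against 6.84 to 7.23 in control, and that of aurka between 7.24 and 7.44, against 7.72 to 8.11. With Fgf3 overexpression 0 of the 21 passed in the limma test, and 3 had an unadjusted p under 0.05, all of them lower (median log2 change -0.06).

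Known MYC targets were split by role. The list was the human hallmark set of MYC targets, in its second version, with additions, most of them textbook targets under other roles. Of 29 measured nucleolar and ribosome biogenesis targets, 14 rose with SU5402 and none fell, and 28 had a change above 0, with a median log2 change of 0.30. Over all named genes 6.57% were called higher with SU5402. With Fgf3 overexpression 4 fell and none rose, 26 had a change below 0, and the median was -0.20, where 2.48% of all named genes were called lower. The mean over the 29 genes ran from 8.20 to 8.46 on the SU5402 arrays, from 7.58 to 7.96 on the overexpression arrays and from 7.90 to 7.99 on the control arrays, so that the SU5402 arrays lay above all control arrays and the overexpression arrays overlapped them.

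The gene with the smallest p in both comparisons was mybbp1a, which encodes a MYB-binding protein of the nucleolus. It lay between 9.61 and 9.90 with SU5402, between 7.91 and 8.42 with Fgf3 overexpression and between 8.66 and 8.97 in control, the same order of groups as in the MYC family and with no overlap. It fell with Fgf3 overexpression by 0.70 on the log2 scale (log2 change -0.70, SE 0.09, limma adjusted p = 5.14e-05), and its log2 change with SU5402 was 0.91 (SE 0.09). The next by p with SU5402 were the rRNA processing genes nop2 (0.57, SE 0.08), wdr43 (0.59, SE 0.08) and nop56 (0.49, SE 0.09). With Fgf3 overexpression they were at -0.25, -0.24 and -0.23 and did not pass (limma adjusted p = 0.0776, 0.122 and 0.173). The falls with Fgf3 overexpression were npm1a, the gene for the nucleolar chaperone nucleophosmin (-0.53, SE 0.10, limma adjusted p = 0.00506), pa2g4a (-0.35, SE 0.07, limma adjusted p = 0.00612) and bysl (-0.27, SE 0.07, limma adjusted p = 0.0349). The call for bysl was lost when the compared arrays were fitted alone (adjusted p = 0.0659). It was also lost without control replicate 1 (adjusted p = 0.0633), 2 (0.0766), 4 (0.0652) or 6 (0.0822), or without Fgf3 overexpression replicate 1 (0.0793), 3 (0.0551), 4 (0.0876) or 5 (0.0517).

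Targets with other roles did not move as a block with SU5402. Of 30 measured, 3 rose and 6 fell with it, and 18 had a change above 0 and 12 below (median log2 change 0.06). With Fgf3 overexpression cad alone was called, as lower, but 5 of the 30 had a change above 0 (median -0.14). The others had a change below 0, except hk2, whose mean was equal to that in control. Over all named genes 6.57% were called higher and 8.13% lower with SU5402, and 2.48% lower with Fgf3 overexpression, so that 1 of 30 is near the background. The falls with SU5402 with the smallest p were those of the mitotic kinase gene plk1 (-0.89, SE 0.09), the nucleoside transporter gene slc29a2 (-1.18, SE 0.15), the centriole kinase gene plk4 (-0.63, SE 0.10) and the DNA repair gene unga (-0.56, SE 0.11), with adjusted p-values up to 0.00279 in the limma fit. The rises were those of pprc1, a coactivator gene of mitochondrial biogenesis (0.73, SE 0.13, limma adjusted p = 0.00109), the nucleolin gene ncl (0.33, SE 0.08, limma adjusted p = 0.00818) and the pseudouridine synthase gene pus1 (0.62, SE 0.18, limma adjusted p = 0.0376). Of these, ncl and pus1 also act on RNA. The call for pus1 was lost without control replicate 3 (adjusted p = 0.0547), 5 (0.0905) or 6 (0.0800), or without SU5402 replicate 1 (0.0907), 2 (0.0661), 3 (0.0854) or 4 (0.0662). The pyrimidine synthesis gene cad was low in both treated groups. It lay between 7.67 and 8.13 with SU5402, between 7.47 and 7.86 with Fgf3 overexpression and between 8.01 and 8.39 in control, and it fell by 0.36 (SE 0.10, limma adjusted p = 0.0223) and by 0.48 (SE 0.10, limma adjusted p = 0.00486) on the log2 scale. The Fgf3 overexpression count of 1 became 2 without control replicate 5, without SU5402 replicates 1, 2 or 3, or without Fgf3 overexpression replicate 3.

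Of 10 measured genes that MYC represses in mammalian cells, only gadd45ab was called with SU5402, where it fell (log2 change -0.72, SE 0.19, limma adjusted p = 0.0172). The list's median was -0.07. Over all named genes 8.13% were called lower with SU5402, so that 1 of 10 is near the background. With Fgf3 overexpression 0 passed in the limma test, and 3 had an unadjusted p under 0.05, 2 higher and 1 lower (median 0.06). The cell cycle inhibitor gene cdkn1a, a classic repressed target, lay between 7.62 and 8.52 with SU5402, between 6.98 and 7.52 with Fgf3 overexpression and between 7.41 and 8.02 in control. Its log2 changes were 0.45 (SE 0.14, limma adjusted p = 0.0535) and -0.42 (SE 0.14, limma adjusted p = 0.122). Counts over both directions together depended on single arrays. The count with SU5402 became 2 without control replicate 1 or without SU5402 replicates 2 or 4. The count with Fgf3 overexpression became 1 without control replicate 1. In the fit as reported, the uncalled gene of this list nearest to the threshold with SU5402 was cdkn1a, which was higher than in control.

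**Figure D4:**
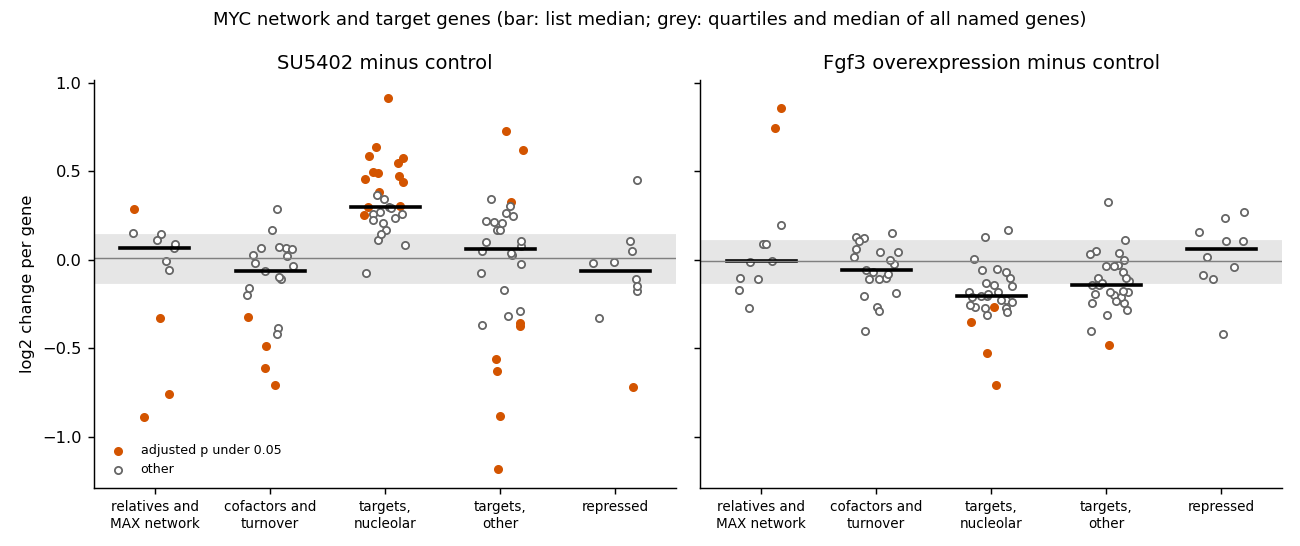
Log2 change of each gene of 5 lists, SU5402 minus control (left) and Fgf3 overexpression minus control (right); filled points have an adjusted p under 0.05, black bars are list medians, and the grey band runs from the lower to the upper quartile of all named genes. The nucleolar targets have medians of 0.30 and -0.20, and the other targets have called genes on both sides of 0 on the left.

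The direct neighbours of the 4 genes along the chromosomes, the nearest 2 measured protein-coding genes on each side, were read from the gene order of assembly GRCz12tu. Of these 16 genes, 2 passed in either comparison, both of them higher with SU5402 and 1 of them lower with Fgf3 overexpression, where 6.57% and 2.48% of all named genes were. Counts this small give no result about the neighbours as a group, and the values of both genes are a description. Next to myca, fam49bb rose with SU5402 (log2 change 0.83, SE 0.10, limma adjusted p = 1.72e-05) and fell with Fgf3 overexpression (-0.40, SE 0.10, limma adjusted p = 0.0333). Next to mycb, ankhb rose with SU5402 (0.78, SE 0.10, limma adjusted p = 3.26e-05) and was at 0.23 with Fgf3 overexpression (limma adjusted p = 0.265). The paralogous neighbours on the other copy, fam49ba beside mycb and ankha beside myca, were at -0.11 and 0.14 with SU5402 (limma adjusted p = 0.378 and 0.546). The neighbours of mych and mycn lay between -0.26 and 0.13 with SU5402 and between -0.23 and 0.19 with Fgf3 overexpression.

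Markers of other cell types moved with SU5402, and their part in the changes above was not tested. Over all named genes 8.13% were called lower and 6.57% higher with SU5402. With Fgf3 overexpression 2.48% were called lower and 3.41% higher. Of 10 skin and periderm markers 5 fell, and their mean lay between 9.01 and 9.41 with SU5402, between 9.94 and 10.17 with Fgf3 overexpression and between 9.78 and 10.34 in control. Of 6 endothelium markers 4 fell with SU5402 (mean 5.64 to 6.05, against 6.41 or above in control), of 6 neuron markers 2 fell (6.81 to 7.64, against 7.04 to 8.17) and of 7 leukocyte markers 2 fell (5.60 to 6.12, against 6.22 to 6.47). These 2 leukocyte markers were lyz (log2 change -2.19) and coro1a (-0.32), and the other 5 lay between -0.44 for mpx and 0.05 for ptprc. Of 5 erythroid markers 3 rose (8.50 to 9.61, against 7.81 to 9.01). With Fgf3 overexpression 1 skin marker fell, and 1 endothelium marker rose and 1 fell. Single calls in lists this short give no result about a list. Of 13 measured primordium markers, 4 rose and 2 fell with SU5402, and 2 rose and 3 fell with Fgf3 overexpression, with a mean between 9.68 and 9.89 with SU5402, between 9.61 and 9.84 with Fgf3 overexpression and between 9.17 and 9.67 in control. This list holds fgf3, the overexpressed gene, whose log2 change was 1.99 with SU5402 and 5.27 with Fgf3 overexpression and which was among those that rose in both. Without it the mean of the other 12 markers lay between 9.73 and 9.93 with SU5402, between 9.39 and 9.62 with Fgf3 overexpression and between 9.41 and 9.88 in control. The group mean with Fgf3 overexpression thus turned from above to below the control mean (9.52 against 9.70). The 3 markers that fell there were fgf10a (log2 change -1.55), lef1 (-1.39) and ackr3b (-0.84). Besides fgf3, prox1a rose (0.33), and the 8 markers not called lay between -0.02 for hmx2 and 0.36 for cxcr4b. For 10 skeletal muscle markers the mean lay between 10.82 and 11.58 with SU5402. It lay between 11.02 and 11.56 with Fgf3 overexpression and between 11.00 and 11.62 in control. All 10 had a change below 0 in both comparisons with control, and 0 were called.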

How the data were processed

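RNA of lateral line primordium cells was measured on 18 Affymetrix arrays, 6 per group. The authors deposited log2 signals, 1 per probe set and array, and per the submitters' processing notes RMA was run in Affymetrix Power Tools. Its version and the array's genome build were not given in the sources used here. Deposited values (1.20 to 13.88) were used unchanged, with no filter. For lists, the probe set with the highest mean stood for a gene, named from the platform's annotation. Listed symbols absent from that annotation were left out.

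All 75212 probe sets were fitted together in limma 3.58.1 (R 4.3.3) over 18 arrays with 1 mean per group, and moderated two-sided p-values were adjusted by Benjamini-Hochberg over all of them, with a threshold of 0.05. The fit was also run on simulated data with noise drawn independently for each array. Such data hold no likeness between same-numbered arrays and cannot show its effect on the calls. The number of arrays limits the precision. Members and lists were chosen with earlier results of these data known. Comparisons between members, of deviations and of neighbouring genes, and markers without fgf3, were added after the values were seen. All 4 members, mycla, myclb and max were named, with up to 4 genes per list, direction and comparison by smallest p. So were the 5 genes outside the family most like each member (for myca also the 5 least like). Symbols of clones or predicted loci were passed over in that choice by likeness. A few other genes were named after their values were seen. Alternatives were a replicate block, other variance models, array weights, shifted array medians, a filter on dim probe sets, the compared arrays alone, means over probe sets and each array left out.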

Additional observations from a re-analysis of the deposited data

Results flagged for a closer look

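One array stood apart in 1 of the 12 sets of 6 arrays (4 genes in 3 groups). The mych signal of control replicate 1 was 9.10, and the gap to the nearest of the other 5 control arrays made up 0.833 of the group's whole range, above Dixon's 95% critical value for 6 samples. Chance marks about 1 in 20 such sets. The same array had the highest mycb value of its group, 9.87, and the highest myca value, 7.36.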

How the results depend on the processing

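No change of a member reversed its direction under any alternative. List counts were compared in size only, so that a reversal could not show in them. The changes of mycn, and all 3 tested members between Fgf3 overexpression and SU5402, passed under each of the 24 alternatives. The calls for mycb and mych against control depended on the fit. With SU5402, mych (0.46 in the fit as reported) passed with a trended and robust variance (0.46, adjusted p = 0.0409), array weights (0.49, adjusted p = 0.0269) and a filter on dim probe sets (0.46, adjusted p = 0.0254), and mycb with that filter (0.37, adjusted p = 0.0497), which tests fewer probe sets. With the replicate block both passed, with SU5402 (mycb 0.37, adjusted p = 0.00704, and mych 0.46, adjusted p = 0.00673) and with Fgf3 overexpression (mycb -0.38, adjusted p = 0.0130, and mych -0.45, adjusted p = 0.0156). The labels do not say that a number marks a shared batch. Same-numbered arrays of different groups had correlations of deviations between 0.01 and 0.23, over 0.1 in 8 of 18 pairs. In 10 of the 18 pairs the same-numbered array correlated best among the 6 arrays of the other group. The fit as reported did not take the numbers as pairs, and the calls for mycb and mych against control depend on that choice. For mycb and mych, deviations over the 6 numbers correlated with those of control by 0.64 to 0.93. The values were 0.57 with SU5402 and 0.16 with Fgf3 overexpression for mycn, and -0.55 and -0.57 for myca. All 6 same-numbered pairs of mycb and mych had the direction of the change in both comparisons. So did those of mycn and, as a description, those of myca. Leaving out single arrays, the SU5402 change of mych lay between 0.40 and 0.57.

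List counts take higher and lower calls together. MYC-repressed genes with SU5402 numbered 2 in place of 1 with the block, the trended variance, array weights or the filter. They numbered 1 to 2 with single arrays left out. With Fgf3 overexpression they numbered 2 with the block, in place of 0, and 0 to 1 with arrays left out. Cofactor and turnover genes with Fgf3 overexpression numbered 1 with the block, in place of 0. Targets with other roles numbered 2 with the block or array weights, 3 with the trended variance and 4 with the filter, in place of 1, and 1 to 2 with arrays left out. The cause of these shifts was not tested.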
